A study of Homo sapiens with 4 samples.

Results

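Peaks inside genes of long noncoding RNAs (lncRNAs) were examined in 2 lists of H3K4bhb peaks from HK-2, a long-established human cell line derived from the renal proximal tubule. H3K4bhb is beta-hydroxybutyrylation of lysine 4 of histone H3, and peaks are the places where ChIP-seq, which sequences the DNA fragments pulled down by an antibody, found it enriched. A peak was a member when it lay on chromosomes 1 to 22, its summit fell between the ends of a RefSeq lncRNA gene, and that summit was more than 1 kb outside every protein-coding gene. This gave 2361 of 17761 peaks, namely 902 of the 6251 H2O2 peaks and 1459 of the 11510 BHBNa peaks. The cells of the H2O2 list had received hydrogen peroxide, an oxidant, alone. The cells of the other list, called BHBNa for short and H2O2 + BHBNa in the plots, had been pretreated with BHBNa, the sodium salt of beta-hydroxybutyrate, before the same oxidant. Both groups thus carried the oxidant, and the labels used here gave no dose or time and no untreated cells. For either treatment there was 1 library of immunoprecipitated (IP) DNA and 1 control, so no difference between the lists has a replicate check and no test between treatments was made. The labels were contradictory on the control, called IgG in the titles and input in the library names.

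Beta-hydroxybutyrate is a ketone body, and cells can attach it to histone lysines as an acyl mark. Lysine 4 of histone H3 is best known for its methylation, which marks active promoters and enhancers. LncRNAs are transcripts without a long reading frame. Some, such as MALAT1, stay in the nucleus, some act on chromatin near their own gene, and some are processed to release microRNAs or small nucleolar RNAs. Many lncRNA genes known only from transcript assembly carry a LOC or LINC symbol, while -AS marks a gene antisense to a coding gene and -DT a gene read away from the start of a neighbour.

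Few members touched the start of a lncRNA gene. RefSeq's GRCh38 table of promoter windows, which run from 250 bases before to 50 bases after a transcript start, held 12569 lncRNA windows. Members reached a window of their own gene 3 times in the H2O2 list and 12 times in the BHBNa list, and covered the first transcribed base in 3 and 10 of these. The 4 windows printed here, picked after their values were seen, belong to the 3 member peaks with a q of at most 0.05 and to the next H2O2 peak. The q-value is the authors' false discovery rate for a peak. Capitals mark the bases that the peak covers, written 5′ to 3′ on the gene's strand.
MALAT1, chr11:65498795-65499094, plus strand: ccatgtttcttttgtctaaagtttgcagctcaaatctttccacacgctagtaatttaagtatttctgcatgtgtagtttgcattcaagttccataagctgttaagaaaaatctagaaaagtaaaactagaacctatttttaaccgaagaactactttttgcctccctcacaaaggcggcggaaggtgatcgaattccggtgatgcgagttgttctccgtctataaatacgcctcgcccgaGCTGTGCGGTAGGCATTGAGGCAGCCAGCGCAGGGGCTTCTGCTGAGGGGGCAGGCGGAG
LOC101927190, chr5:116374521-116374820, minus strand: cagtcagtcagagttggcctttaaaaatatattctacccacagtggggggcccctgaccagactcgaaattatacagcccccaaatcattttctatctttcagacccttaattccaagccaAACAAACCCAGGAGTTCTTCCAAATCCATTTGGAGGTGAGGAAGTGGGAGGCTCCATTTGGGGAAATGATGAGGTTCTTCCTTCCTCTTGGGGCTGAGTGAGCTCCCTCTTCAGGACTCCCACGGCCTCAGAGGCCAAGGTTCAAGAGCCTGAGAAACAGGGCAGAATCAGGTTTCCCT
LOC124904191, chr1:58745334-58745633, minus strand: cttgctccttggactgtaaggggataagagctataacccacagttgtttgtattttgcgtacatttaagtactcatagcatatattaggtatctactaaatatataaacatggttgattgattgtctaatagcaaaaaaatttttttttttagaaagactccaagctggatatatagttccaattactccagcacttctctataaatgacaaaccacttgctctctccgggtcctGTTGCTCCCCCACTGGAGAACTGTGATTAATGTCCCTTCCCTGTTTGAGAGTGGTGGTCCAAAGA
LOC105371302, chr16:61365254-61365553, plus strand: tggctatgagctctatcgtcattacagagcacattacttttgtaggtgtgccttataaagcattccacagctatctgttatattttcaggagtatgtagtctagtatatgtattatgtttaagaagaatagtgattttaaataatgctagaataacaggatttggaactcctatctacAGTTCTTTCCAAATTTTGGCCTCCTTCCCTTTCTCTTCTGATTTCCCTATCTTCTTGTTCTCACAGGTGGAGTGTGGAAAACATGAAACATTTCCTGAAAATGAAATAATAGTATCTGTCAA

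The MALAT1 peak was the strongest of these. It lay in the BHBNa list only, at chr11:65499035-65499711, with 6 IP fragments, the DNA pieces that cover the summit, over a control background of 0.141 fragments and a fold enrichment of 6.13 (q = 2.543e-05). Its summit was 529 bp past an annotated start inside the gene and 1.84 kb from the lower-coordinate end of the 8.78 kb gene. The LOC101927190 peak, also in the BHBNa list, had 3 fragments and a fold of 3.63 (q = 0.0485). In the H2O2 list, LOC124904191, 35.9 kb from the stress-responsive transcription factor gene JUN, had 5 fragments and a fold of 4.71 (q = 0.035). LOC105371302 in the same list had 6 fragments and a fold of 4.57 (q = 0.0596). The other 11 member peaks that reached a window had folds of 2.57 to 3.58 and a q above 0.05. Windows reached were low in CpG dinucleotides. The median was 1 CpG in the H2O2 list and 2.5 in the BHBNa list, against 5 over all lncRNA windows, and the MALAT1 window stood apart with 14. Searched on both strands, TATAAA was in 2 of the 3 H2O2 windows and 3 of the 12 BHBNa windows, against 15.0% of all lncRNA windows. CCAAT was in 2 of 3 and 5 of 12, against 34.4%. GGGCGG was in 0 of 3 and 0 of 12, against 25.6%. The set of all lncRNA windows was not limited to starts over 1 kb from coding genes, whereas member summits were. These contrasts, on 3 and 12 windows, therefore cannot be told apart from an effect of the member rule.

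Genes that host microRNAs were among the members, and the mature RNAs of those described here are shown with the seed, bases 2 to 8, in capitals (RefSeq, GRCh38). No 2 of the 6 share a seed.
hsa-miR-34a-5p, from MIR34AHG: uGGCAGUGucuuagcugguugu
hsa-miR-924, from MIR924HG: aGAGUCUUgugaugucuugc
hsa-miR-99a-5p, from MIR99AHG: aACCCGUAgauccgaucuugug
hsa-let-7c-5p, from MIR99AHG: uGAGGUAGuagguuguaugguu
hsa-miR-9-5p, from MIR9-2HG: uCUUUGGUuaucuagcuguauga
hsa-miR-217-5p, from MIR217HG: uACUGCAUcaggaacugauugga

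The peaks lay within these genes and did not overlap the microRNA hairpins. In all, 32 lncRNA genes with a member peak held 41 annotated hairpins, and 0 hairpins were overlapped by a member peak. Hairpins are short and these are few, and no expected number was set beside this 0, so it does not show avoidance. The nearest summit was 0.968 kb from a hairpin, and 8 hairpins were within 10 kb of one. In MIR34AHG, the host of the p53-induced miR-34a, the BHBNa list had 1 peak (chr1:9159603-9160015, 3 fragments, fold 3.63, q = 0.0485), 8.04 kb from the hairpin. The H2O2 list had none there. MIR924HG had 4 peaks in the BHBNa list, of folds 4.95 (q = 0.00322), 3.50, 2.67 and 2.59, and 1 in the H2O2 list, of fold 3.72. MIR99AHG, which carries miR-99a and let-7c, had 1 peak, in the H2O2 list (fold 4.74, 7 fragments, q = 0.0359), 331 kb from the miR-99a hairpin. MIR9-2HG, host of the neural miR-9, also had 1 peak in the H2O2 list only (fold 4.55, 5 fragments, q = 0.0497). MIR217HG had a fold of 4.28 in the H2O2 list (q = 0.112) and a fold of 2.61 in the BHBNa list (q = 0.326), at separate summits. Host genes as a class, those with a MIR..HG or SNHG symbol, held 8 peaks in 8 of 94 genes (8.51%) in the H2O2 list and 25 peaks in 13 of 94 genes (13.8%) in the BHBNa list, where 5.43% and 8.63% of the 13339 lncRNA genes with sequence over 1 kb from coding genes held one. Per Mb of their sequence that was 1.17 (95% Poisson interval 0.504 to 2.30) and 3.65 (2.36 to 5.39), against 2.58 and 4.17 over all lncRNA genes. Host genes were not matched to the other lncRNA genes in size or distance from coding genes.

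Most members rested on few fragments. The number of IP fragments at the summit was recovered from the authors' fold enrichment and p-value for 902 of 902 and 1459 of 1459 members. Members of the H2O2 list had 3 to 15 fragments (median 5), and those of the BHBNa list had 2 to 13 (median 3). In the BHBNa list 721 members, 49.4%, had only 2 fragments, and in the H2O2 list 0 did. The lists also differed in the control level behind the peaks: the median local background was 0.470 fragments for H2O2 members and 0.157 for BHBNa members, and the genome-wide level was 0.274 and 0.102. A peak of 2 fragments over 0.102 has a fold of 2.72. A local background over 3 times the genome-wide level stood behind 161 H2O2 members, 17.8%, and 157 BHBNa members, 10.8%. The part of these levels in the difference between the lists was not tested. The limit of q = 0.05 was passed by 73 of 902 members, 8.09% (95% Wilson interval 6.49 to 10.1), in the H2O2 list. Over all peaks of chromosomes 1 to 22 in that list the share was 7.08%. In the BHBNa list 205 of 1459 members, 14.1% (12.4 to 15.9), reached it, against 15.1% of all its peaks. Both shares were close to those of their whole lists. Of the 205 BHBNa members 103 had a q above 0.04, close to the limit, as did 7 of the 73 H2O2 members. Intervals in the text cover counting error only, since each list comes from 1 IP library. Reads without molecular identifiers are not independent molecules, and whether such identifiers were used was not checked.

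**Figure D1:**
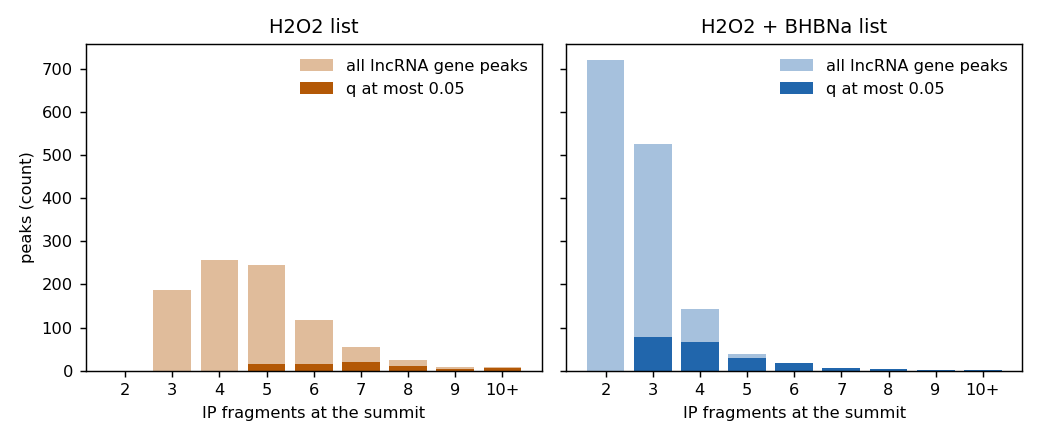
Number of member peaks (vertical axis, count) by IP fragments at the summit (horizontal axis, 10 or more pooled), for the H2O2 list (left) and the BHBNa list (right); dark bars are members with a q of at most 0.05. The BHBNa list holds 721 members of 2 fragments and 525 of 3, while the H2O2 list has 0 and 186.

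Fold enrichment is the authors' value for the summit over background. It had a median of 3.54 among H2O2 members (interquartile range 3.13 to 3.92, highest 7.66) and 2.85 among BHBNa members (2.65 to 3.48, highest 10.3). The same medians over peaks in or near coding genes were 3.47 and 2.72, and 3.53 and 2.72 over the remaining peaks of these chromosomes. Peaks were narrow, with median widths of 298 and 323 bp. Strong peaks were rare: a −log10 q of 5 or more was reached by 1 H2O2 member and 6 BHBNa members. The rule's limit was 1 kb. Just inside it, 1 to 2 kb from a coding gene, were 4 H2O2 peaks (median fold 3.74) and 12 BHBNa peaks (3.07). Just outside it, within 1 kb of a coding gene, were 3 (3.14) and 6 (2.72), and a further 173 and 316 lncRNA-gene summits lay inside a coding gene.

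Peaks were denser in lncRNA genes than in coding genes, by a larger factor in the H2O2 list. LncRNA genes over 1 kb from coding genes covered 350.2 Mb, 12.2% of chromosomes 1 to 22 up to their last annotated gene, and held 15.3% (14.4 to 16.3) of H2O2 peaks and 13.6% (12.9 to 14.2) of BHBNa peaks. In the H2O2 list this was 2.58 peaks per Mb (2.41 to 2.75), against 1.82 (1.75 to 1.90) inside or within 1 kb of coding genes and 2.11 (2.04 to 2.20) in the remainder. In the BHBNa list it was 4.17 per Mb (3.95 to 4.39), against 3.74 (3.63 to 3.85) and 3.63 (3.53 to 3.74). Centromeres and unsequenced gaps were left in the remainder, and densities at matched distances from coding genes follow below. The ratio of the density in lncRNA genes to that in coding genes was 1.41 (95% interval 1.31 to 1.52, from the counts) for H2O2 peaks and 1.11 (1.05 to 1.18) for BHBNa peaks. Among peaks of 3 or more fragments, the BHBNa values were 2.11 per Mb in lncRNA genes and 1.76 in both other kinds of sequence. At that limit the BHBNa list held 5186 peaks on these chromosomes and the H2O2 list 5879, and the BHBNa density was the lower one in all 3 kinds of sequence. With only peaks of a q of at most 0.05 the ratio was 1.78 (1.34 to 2.36) for H2O2 peaks and 1.07 (0.918 to 1.25) for BHBNa peaks, an interval that includes equal density.

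**Figure D2:**
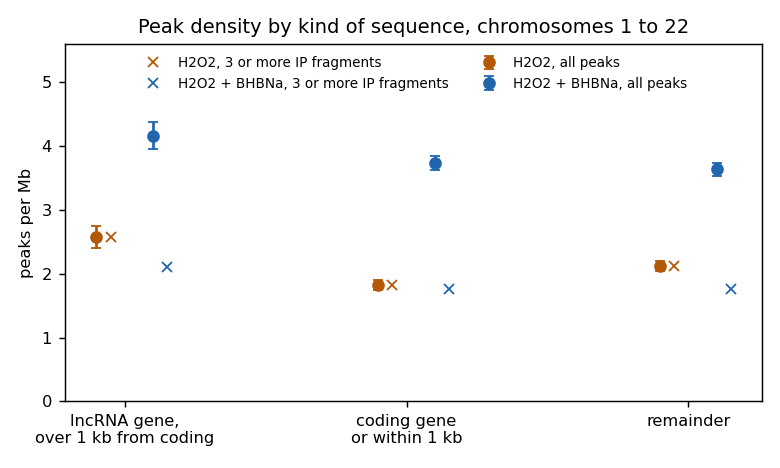
Peaks per Mb (vertical axis) in lncRNA genes over 1 kb from coding genes, in coding genes or within 1 kb of them, and in the remainder of chromosomes 1 to 22; circles are all peaks with 95% Poisson intervals, crosses peaks of 3 or more IP fragments. Of these kinds of sequence, lncRNA genes have the highest density in both lists, 2.58 and 4.17 per Mb, and the BHBNa value drops to 2.11 among peaks of 3 or more fragments. Centromeres and unsequenced gaps were left in the remainder.

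In the H2O2 list the density was higher farther from coding genes, and up to 500 kb sequence outside lncRNA genes had values close to those inside. It was 1.23 peaks per Mb of lncRNA sequence 1 to 10 kb from the nearest coding gene, 1.63 at 10 to 50 kb, 2.37 at 50 to 200 kb, 3.24 at 200 to 500 kb and 4.22 beyond 500 kb. Sequence outside lncRNA genes at the first 4 distances had 1.37, 1.69, 2.44 and 2.91 per Mb, each within the interval of the lncRNA value. Beyond 500 kb it had 2.001, in a stretch from which centromeres and unsequenced gaps were not removed. In the BHBNa list the lncRNA values were 3.29, 4.12, 4.07, 4.68 and 4.14 per Mb, and those outside lncRNA genes 3.57, 3.96, 4.20, 4.47 and 2.34. The density in the BHBNa list over that in the H2O2 list was thus 2.67 at 1 to 10 kb and 0.981 beyond 500 kb. Among peaks of 3 or more fragments the BHBNa densities at these distances were 1.77 and 2.28 per Mb, and the ratios 1.44 and 0.541. Members lay a median of 225 kb from the nearest coding gene in the H2O2 list and 135 kb in the BHBNa list.

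A larger share of long than of short lncRNA genes held a peak. Of 13339 lncRNA genes with sequence over 1 kb from coding genes, 724 held an H2O2 member, 5.43%, and 1151 a BHBNa member, 8.63%. The median length of these genes was 93.5 and 69.0 kb, against 10.6 kb over the 13339. By kb outside coding genes, the share of genes with an H2O2 peak was 0.251% up to 5 kb, 1.52% at 5 to 20 kb, 6.95% at 20 to 50 kb, 15.3% at 50 to 100 kb, 35.4% at 100 to 300 kb and 70.0% above 300 kb. The shares for the BHBNa list were 0.866%, 3.76%, 11.6%, 24.5%, 47.6% and 80.0%. Per Mb, the H2O2 density went from 1.03 in the shortest genes to 3.36 in the longest, and the BHBNa density only from 3.55 to 4.48, or from 1.68 to 2.34 among peaks of 3 or more fragments.

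**Figure D3:**
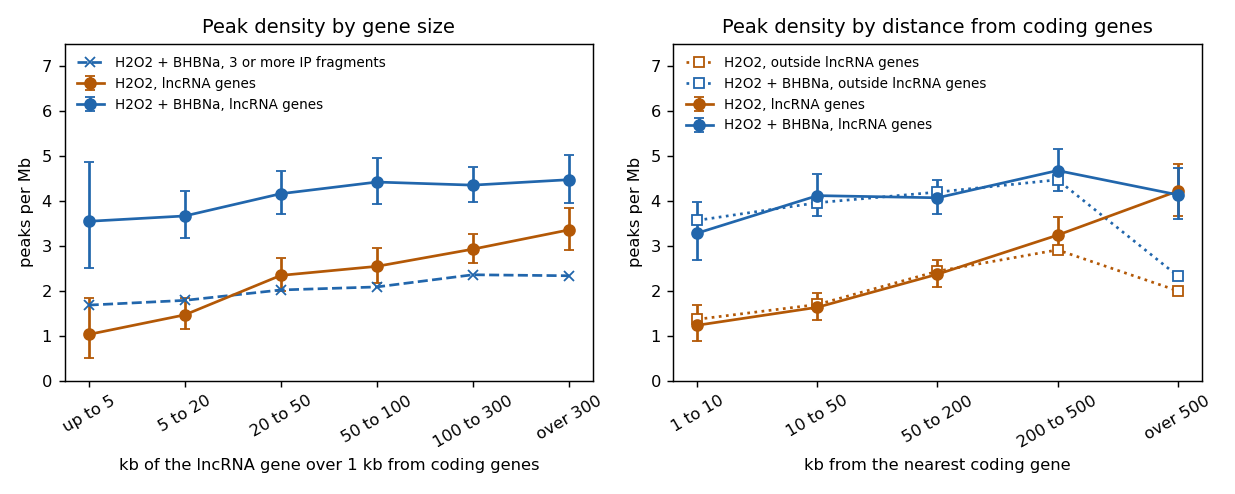
Peaks per Mb (vertical axis) by size of the lncRNA gene (left) and by distance from the nearest coding gene (right); filled circles are lncRNA genes with 95% Poisson intervals, open squares sequence outside lncRNA genes, crosses BHBNa peaks of 3 or more IP fragments. The H2O2 density climbs from 1.23 to 4.22 per Mb with distance from coding genes, and sequence outside lncRNA genes follows it up to 200 to 500 kb.

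Along the genes the members showed no pile-up at starts. A start and strand were known for 589 of 951 H2O2 pairings of a peak with a gene and for 958 of 1574 BHBNa pairings. Of these, 11 (1.87%, 1.05 to 3.31) and 25 (2.61%, 1.77 to 3.82) had their summit within 1 kb of a start, where 3.26% of the genes' sequence lies. With a gene cut into 3 equal parts from its start, the first held 30.3%, the middle 37.4% and the last 32.3% of 446 H2O2 pairings. For 691 BHBNa pairings these were 33.7%, 35.0% and 31.3%. The 95% Wilson interval of each of these 6 shares included an equal split.

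The 8 highest H2O2 folds lay 73.8 to 565 kb from the nearest coding gene. In the H2O2 list the strongest member was in LOC105371261 (chr16:52248555-52249551), with 15 IP fragments over a background of 1.09, a fold of 7.66 and a q of 1.844e-08, 187 kb from TOX3. LOC105372189 (chr18:72162324-72162579), with 8 fragments, had a fold of 6.30 (q = 0.000185). The next 6, in LOC105377700, TTC14-DT, LOC105373013, LINC01811, LINC02699 and LOC105375976, had folds of 5.92 to 5.59 and 7 to 9 fragments. All 8 of these members had a q of at most 0.05, and only that in TTC14-DT overlapped a peak of the BHBNa list.

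In the BHBNa list the strongest member, in LINC01790 and the overlapping LOC105376755 (chr2:194754172-194754466), had 12 fragments over 0.266, a fold of 10.3 and a q of 1.534e-12. It was 859 kb from the nearest coding gene, SLC39A10. LOC105371682 (chr1:199950442-199950918) had 13 fragments and a fold of 9.96 (q = 8.776e-12). ITGA2-AS1 (chr5:52962567-52962841), antisense to the gene of a collagen-binding integrin subunit, had 9 fragments and a fold of 8.10 (q = 2.974e-08), 3.55 kb from ITGA1. MIOS-DT (chr7:7552683-7553140) had 8 fragments and a fold of 7.17 (q = 2.035e-06). MEF2C-AS1 (chr5:88954012-88954472), beside the gene of the transcription factor MEF2C, had 7 fragments and a fold of 6.86 (q = 2.36e-06). The others among the 8 highest, in LOC105373530, DISC1FP1 and LOC105378833, had folds of 6.96, 6.50 and 6.23. None of these 8 peaks overlapped a peak of the H2O2 list.

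The lists shared few members. Over all peaks of chromosomes 1 to 22, 1.17% of the H2O2 list and 0.632% of the BHBNa list overlapped a peak of the other by 1 bp or more. Among members 6 pairs did, 0.665% (0.305 to 1.44) and 0.411% (0.189 to 0.894). DYNLRB2-AS1 (chr16:80197066-80197550 in the H2O2 list) had 6 fragments in each list, with a fold of 3.87 (q = 0.206) in the H2O2 list and 4.91 (q = 0.00712) in the BHBNa list. TTC14-DT (chr3:180528176-180528483) had 8 fragments and a fold of 5.88 (q = 0.00104) against 3 fragments and a fold of 2.99 (q = 0.326). LOC112268408 (chr18:108474-108924) had 5 fragments and a fold of 4.71 (q = 0.035) against 3 and a fold of 3.48 (q = 0.0897). In LOC105378398, LOC124907897 and the overlapping LINC02264 and LOC102723914 the H2O2 folds were 2.96, 3.64 and 4.27, and the BHBNa peaks had 2 fragments and folds of 2.62, 2.54 and 2.56. In 0 of the 6 pairs did both peaks reach a q of at most 0.05.

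More genes than peaks were held in common. Of 1610 lncRNA genes with a member, 265 had one in each list, 36.6% (33.2 to 40.2) of those in the H2O2 list and 23.0% (20.7 to 25.5) of those in the BHBNa list. Of all 13339 lncRNA genes, 5.43% held an H2O2 and 8.63% a BHBNa member. The 265 genes were long, with a median of 184 kb, against 58.4 and 51.6 kb for genes with peaks in the H2O2 or the BHBNa list alone. Among genes with over 300 kb outside coding genes, 70.0% held an H2O2 member, 80.0% a BHBNa member and 54.3% both. At 5 to 20 kb these shares were 1.52%, 3.76% and 0.102%. Whether the lists share more genes than gene length gives was not tested. In the 265 genes the nearest summits of the lists were a median of 20.9 kb apart (interquartile range 7.88 to 52.5), and within 1 kb in 12 genes. In 8 genes, picked after their values were seen, both lists had a member with a q of at most 0.05: CFAP418-AS1, FOLR1-AS1, HECTD2-AS1, LINC01811, LOC101927182, LOC105379064, LOC105379364 and LOC112268408. FOLR1-AS1, antisense to the gene of a folate receptor found on proximal tubule cells, had a peak of 5 fragments and a fold of 4.71 (q = 0.035) in the H2O2 list and one of 6 fragments and a fold of 5.42 (q = 0.00131) in the BHBNa list, with summits 1.49 kb apart.

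Among the lncRNA genes with the most peaks, 5 genes of 383 to 894 kb are described here, beside the peak numbers that the mean density over all lncRNA genes gives for their length. They were picked for their peak numbers, so totals above those of mean density follow from the pick. Genes with over 300 kb outside coding genes, such as these, also had higher densities than that mean. These were 3.36 H2O2 and 4.48 BHBNa peaks per Mb, against 2.58 and 4.17. The BHBNa list also held more members in all, 1459 against 902. LOC105378178 (894 kb) had more peaks in the H2O2 list, 7 against 3, where its length gives 2.30 and 3.72. In the other 4 genes the BHBNa list had more: LOC101929028 (383 kb) 3 and 8, where its length gives 0.986 and 1.59, CFAP418-AS1 (541 kb) 4 and 5, where it gives 1.39 and 2.25, DISC1FP1 (664 kb) 2 and 7, where it gives 1.71 and 2.77, and LOC124901056 (891 kb) 3 and 6, where it gives 2.27 and 3.67. The highest fold in these genes was the 6.50 of DISC1FP1 in the BHBNa list (8 fragments, q = 4.27e-05).

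**Figure D4:**
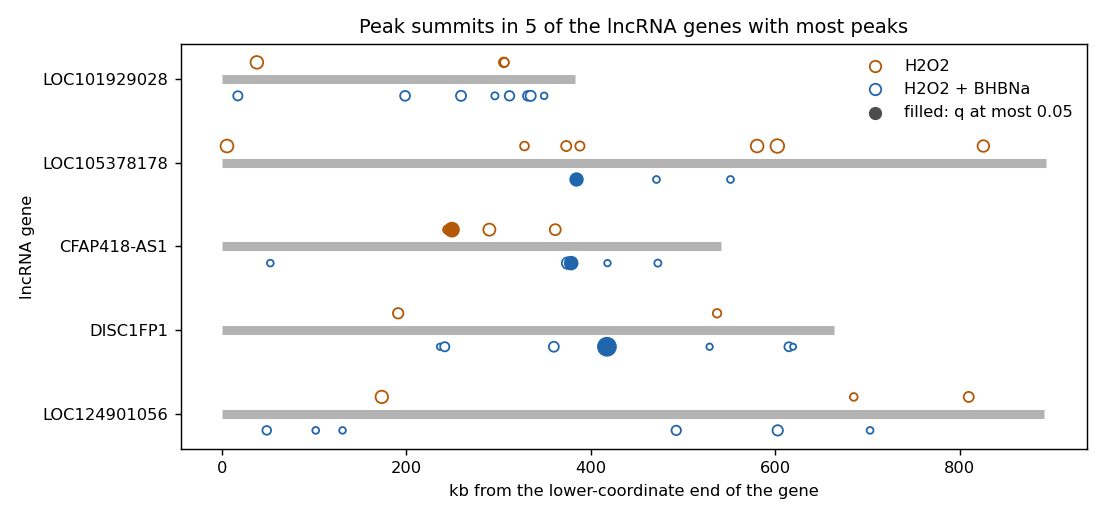
Summits in 5 of the lncRNA genes with the most peaks, by distance from the lower-coordinate end of the gene (kb); grey bars are genes, H2O2 peaks stand above and BHBNa peaks below, circle area grows with fold, and filled circles have a q of at most 0.05. LOC105378178 has 7 summits above its bar and 3 below, and LOC101929028 has 3 above and 8 below.

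Known lncRNAs were counted in 5 functional lists, beside the 5.43% and 8.63% of all 13339 lncRNA genes with an H2O2 and a BHBNa member and beside the peaks that mean density gives for the genes' length. Of 17 measurable kidney injury and fibrosis lncRNAs, 2 (11.8%) had an H2O2 member (CDKN2B-AS1, LINC00511) and 4 (23.5%) a BHBNa member (CASC2, MALAT1, MIAT, PVT1), with 2 and 6 peaks where mean density gives 2.03 and 3.28. MALAT1, an abundant nuclear RNA, had the highest fold of any listed gene, 6.13 in the BHBNa list, and no peak in the H2O2 list. CDKN2B-AS1 (ANRIL), which lies by the cell-cycle inhibitor genes CDKN2A and CDKN2B, had an H2O2 peak at chr9:22101428-22101695 with 7 fragments and a fold of 5.01 (q = 0.0212), and none in the BHBNa list. That summit was 92.3 kb from CDKN2B, the nearest coding gene. PVT1, next to the oncogene MYC, had 3 BHBNa peaks of folds 3.58 (3 fragments, q = 0.0488), 2.64 and 2.56. Their summits were 330, 318 and 183 kb from MYC, the nearest coding gene. LINC00511 had an H2O2 fold of 3.14, and MIAT a BHBNa fold of 2.72 from 2 fragments.

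Of 17 oxidative stress, hypoxia and p53 response lncRNAs, 1 (5.88%) had an H2O2 member (SOX2-OT) and 3 (17.6%) a BHBNa member (DLEU1, MIR34AHG, SOX2-OT), with 3 and 6 peaks where mean density gives 3.98 and 6.44. SOX2-OT, which overlaps the stem cell factor gene SOX2, had H2O2 folds of 5.52 (8 fragments, q = 0.0036), 3.98 and 3.15, and BHBNa folds of 3.81 and 2.70. The nearest coding gene to the summit of fold 3.98 was SOX2, 159 kb away. To the other SOX2-OT summits it was DNAJC19, 80.1 to 300 kb away. The 3 DLEU1 peaks had BHBNa folds of 2.94, 2.72 and 2.63. Of 15 imprinting and chromatin-regulating lncRNAs, CDKN2B-AS1 had an H2O2 member and DLEU2 a BHBNa member (fold 2.94, a peak that also lies in DLEU1), 6.67% in each list with 1 peak each, where mean density gives 1.81 and 2.92 peaks.

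Of 14 cancer-associated lncRNAs, 4 (28.6%) had a member in the H2O2 list and 4 in the BHBNa list, with 7 and 7 peaks where mean density gives 4.79 and 7.75. SAMMSON, a melanoma lncRNA beside MITF, had a fold of 4.42 (5 fragments, q = 0.0746) in the H2O2 list and 2.53 (2 fragments) in the BHBNa list. The coding genes nearest to these summits were MITF, 62.3 kb away, and MDFIC2, 42.1 kb away. SCHLAP1, a prostate cancer lncRNA, had H2O2 folds of 4.11 and 2.83 and no BHBNa peak. CASC15, a neuroblastoma susceptibility lncRNA, had 3 H2O2 peaks (folds 3.96, 2.98 and 2.87) and 2 BHBNa peaks (3.26 and 2.72). Of 12 neural and developmental lncRNAs, 2 (16.7%) had an H2O2 member (CASC15, SOX2-OT) and 3 (25.0%) a BHBNa member (CASC15, MIAT, SOX2-OT), with 6 and 5 peaks where mean density gives 4.17 and 6.74. Several genes stand in more than 1 list, so the counts are not independent.

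**Figure D5:**
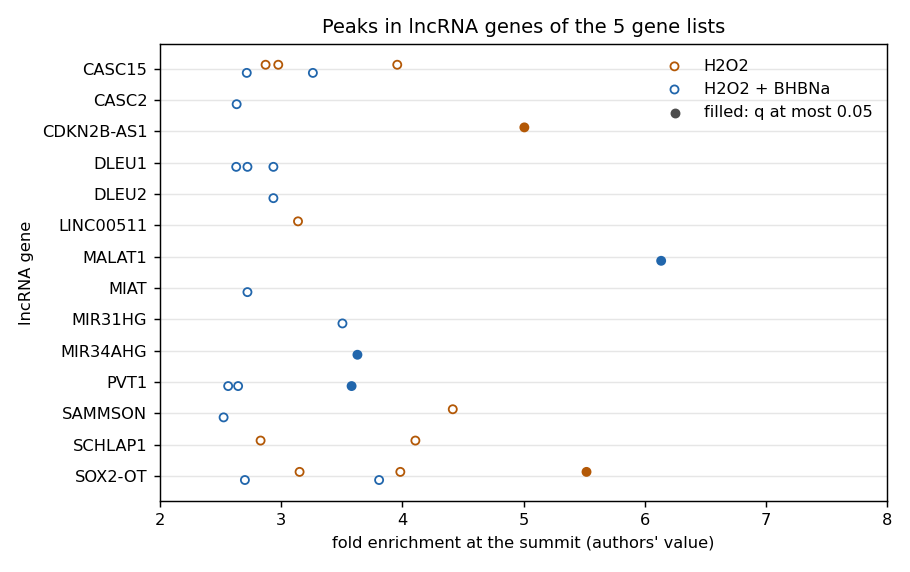
Fold enrichment (horizontal axis, the authors' value) of each member peak in genes of the 5 functional lists (vertical axis), coloured by peak list; filled circles have a q of at most 0.05. MALAT1 stands highest at 6.13, SOX2-OT and CDKN2B-AS1 reach 5.52 and 5.01 in the H2O2 list, and the others lie at or under 4.42.

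By kind of gene, taken from the symbol, LOC, LINC, antisense and divergent genes had overlapping intervals of density in each list. LOC genes, 67.6% of the 13339, had 2.76 H2O2 peaks per Mb (2.55 to 2.99) and 4.28 BHBNa peaks per Mb (4.01 to 4.57). LINC genes had 2.51 (2.19 to 2.87) and 4.14 (3.72 to 4.59), antisense genes 2.28 (1.77 to 2.89) and 4.76 (4.00 to 5.62), and divergent genes 2.27 (1.58 to 3.15) and 3.89 (2.97 to 5.00). Genes with another symbol, many of them the better-studied lncRNAs, had the lowest H2O2 density after the host genes, 1.42 (0.909 to 2.11), and 3.66 (2.81 to 4.70) in the BHBNa list. That H2O2 interval lay below those of LOC and LINC genes. The kinds of gene were not matched in size or distance from coding genes, with which the H2O2 density varied. By chromosome, the H2O2 density ran from 0.796 per Mb of lncRNA sequence on chromosome 22 (3 peaks) to 3.18 on chromosome 14 (44 peaks). The BHBNa density ran from 2.12 on chromosome 22 (8 peaks) to 5.47 on chromosome 18 (53 peaks). All H2O2 peaks together had 0.512 and 2.04 per Mb on chromosomes 22 and 14. All BHBNa peaks had 1.93 and 4.30 per Mb on chromosomes 22 and 18.

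Peak lists carry no expression, so they cannot check the cell type, and peaks in marker genes are given as counts only. Of 9 kidney epithelial markers, LRP2 and CUBN held a peak in both lists and PAX8 in the BHBNa list. Of 6 markers of other cells, 0 held an H2O2 peak and VWF held a BHBNa peak. Neither gene length nor the share of all coding genes with a peak was set beside these counts.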

How the data were processed

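H3K4bhb ChIP-seq was read as peak lists, 1 per treatment from 1 IP library each. The submitters' processing notes name GRCh38 and, among tools, MACS2 2.2.7.1 and Bowtie2 2.4.2, with fastp 0.20.1, HOMER, DiffBind and ChIPseeker; their roles and settings are not given in the sources used here. Both files of a treatment held the same peaks, in 100% of rows, with starts 1 bp apart. The authors deposited, per peak, its summit, its fold enrichment (a ratio), a score, and a −log10 p-value and −log10 q-value. No peak had a −log10 p under 3.00, and no limit on q was seen. No read depth per library was used here, so the recovered fragments stand for it.

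IP fragments and control background were computed from fold, taken as fragments + 1 over background + 1, and from p as the Poisson chance of more fragments, within 0.001. This step and the assignment to genes were tested on simulated data. RefSeq tables (GRCh38.p14) gave 17795 lncRNA and 19126 coding genes on chromosomes 1 to 22, with no exons, so exon and intron were not assigned. Peaks were printed 1-based, and no genome sequence was used. A peak in overlapping genes was counted for each gene. Expected peak numbers were gene length outside coding genes times the mean density. Intervals are Wilson for shares and Poisson for densities, at 95%.

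The members and gene lists were chosen with earlier results of these data known. Named were, per list, the 8 members with the highest fold, all members that overlapped one of the other list, the 6 genes with most peaks, up to 4 genes by fold per gene list, and up to 4 host genes by fold; others are said to be picked later. One of the genes with most peaks is not reported here. Alternatives were a q of at most 0.05, 3 or more fragments, other distances from coding genes, genes up to 300 kb, whole-peak overlap and other rules for shared peaks. Analyses used Python 3.11.15, numpy 2.4.6, pandas 2.3.3, scipy 1.17.1 and matplotlib 3.10.9.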

Additional observations from a re-analysis of the deposited data

Results flagged for a closer look

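Chromosome X lay outside the comparisons, and by the same rule its lncRNA genes also held peaks. They numbered 23 of 353 chromosome X peaks in the H2O2 list, 6.52% (95% Wilson interval 4.38 to 9.59), and 46 of 704 in the BHBNa list, 6.53% (4.93 to 8.61). Both shares were below those of chromosomes 1 to 22, 15.3% and 13.6%. The share of lncRNA sequence on chromosome X was not computed.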

How the results depend on the processing

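Of 52 recomputed values, 36 stayed within 1.5 times the reported count or within its counting interval, and 16 moved. With only peaks of a q of at most 0.05, members fell to 73 and 205, their shares of the lists became 17.5% and 12.6%, shared pairs 0, genes in both lists 8, and the H2O2 ratio of lncRNA to coding density 1.78; the BHBNa ratio was 1.07 (0.918 to 1.25), an interval that includes equal density. With 3 or more fragments, BHBNa members numbered 738, 14.2% of that list, of which 27.8% had such a q; the shared pairs became 3, the genes in both lists 176, and the BHBNa density ratio 1.20. Genes of at most 300 kb gave shares of 11.9% and 11.2%. Counting summits within 500 bp gave 10 shared pairs. Seeing the data came before the density ratios under q and fragment limits were added as alternatives. No paired analysis was possible because there was 1 library in every group, and no replicate could be left out. With medians of 5 and 3 fragments, the depth limits every peak-level comparison of the lists.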

Other observations

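Near MEF2C, a transcription factor gene on chromosome 5, members lay in 3 lncRNA genes, noticed after their values were seen. MIR9-2HG (153 kb) had an H2O2 peak of fold 4.55, 135 kb from MEF2C. GSCAR had an H2O2 peak of fold 2.96 (4 fragments, q = 0.532) that covered its first base, 20.0 kb from MEF2C. MEF2C-AS1 (584 kb) had members in both lists. Its BHBNa peaks had folds of 6.86 (50.2 kb from MEF2C) and 3.52 (q = 0.0702). Its H2O2 peak had a fold of 3.07 (q = 0.494), and the nearest summits were 0.788 kb apart. No peak number expected from gene length was set beside these.

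Among 28 lncRNA genes named after mitochondrial or ketone metabolism neighbours, a list added after the data were seen, 2 had an H2O2 member and 3 a BHBNa member. That is 7.14% and 10.7%, beside 5.43% and 8.63% of the 13339 lncRNA genes with sequence over 1 kb from coding genes. SUCLG2-DT, next to a gene of the tricarboxylic acid cycle, had folds of 4.28 (q = 0.112) in the H2O2 list and 3.41 (q = 0.121) in the BHBNa list. MRPS9-AS2, by a mitochondrial ribosomal protein gene, had 4.45 (q = 0.0802) and 2.72 (q = 0.326). PDK1-AS1, by a kinase that restrains pyruvate oxidation, had a peak of 2 fragments in the BHBNa list only (fold 2.61). The nearest coding gene to that summit was ITGA6, 2.32 kb away. To the SUCLG2-DT summits it was TAFA1, 91.4 kb (H2O2) and 143 kb (BHBNa) away. To the MRPS9-AS2 summits it was MRPS9, 3.48 kb away (H2O2), and POU3F3, 43.7 kb away (BHBNa). No peak number expected from the length of the listed genes was set beside these.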
